A study of Mus musculus with 4 samples.

Results

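The Cd300 and paired immunoglobulin-like receptors are surface proteins with which myeloid cells weigh activating against inhibitory signals. The 8 names Cd300a, Cd300lb, Cd300ld, Cd300lf, Cd300lg, Pirb, Lilrb4 and Lilrb3 were looked up by gene symbol, older symbols included, and they came to 7 genes of 22254 named on the array. Lilrb3 is an older mouse symbol of Pirb, and the deposited table lists the gene under it. Lilrb4 is now Lilrb4a, and Cd300ld stands in the table as 4732429D16Rik. Each of the 7 genes had 1 probe set, so no choice between probe sets was needed. The names were chosen by their RMA intensity differences between the conditions, as earlier results on these same arrays gave them, with no threshold in the rule. All their differences are therefore a description, and none carries a test.

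The cells were dendritic cells grown with GM-CSF from bone marrow of C57Bl/6 mice and kept for 16 h in 1 of 4 conditions. These were hypoxia with poly I:C, normoxia with poly I:C, hypoxia in media and normoxia in media. Poly I:C, a synthetic double-stranded RNA that stands in for viral RNA, was given at 10 µg/ml, and hypoxia is labelled as 0.5%, with no gas stated. A single Affymetrix Mouse Gene ST 1.0 array was run per condition, with no replicate. No value here has a replicate error or a p-value, and precision is limited by the number of arrays. The labels do not say how many mice or cultures gave the RNA.

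Intensities are the authors' RMA values on a linear scale, whose median over all probe sets was 3.90 to 4.09 on the 4 arrays. A gene entered the comparisons if its brightest array read 64 or more, which held for 2720 genes, and a difference was called at 2-fold, that is a log2 difference of 1 between 2 arrays. Of the 7 receptor genes 5 reached that floor, namely Cd300lf, Cd300ld, Cd300lb, Pirb and Lilrb4a, while Cd300a and Cd300lg did not. Known target genes of the treatments differed between the arrays. All 8 listed interferon-induced genes were called higher under poly I:C, with a median log2 difference of 5.61 in hypoxia and 4.69 in normoxia. All 8 listed hypoxia-induced genes were called higher in hypoxia in media, with a median of 3.73, and 7 of 8 in hypoxia with poly I:C. The lists did not separate the treatments, since 7 of the 8 hypoxia-induced genes were also called higher under poly I:C in normoxia (median 1.47) and 4 of the 8 interferon-induced genes were called lower in hypoxia in media (median -1.29). Some of these calls compare 2 readings that both lay under the floor. Among the former these were Egln3 (16.3 against 3.81), Ankrd37 and Ndrg1, and among the latter Cxcl10 (4.09 against 15.7), Mx1 and Ifit1. Defining dendritic cell transcripts were bright, with Itgax (CD11c) between 268.1 and 615 and the MHC class II gene H2-Ab1 between 631 and 1402. Of 14 macrophage and monocyte markers on the array 13 also reached the floor. Flt3 and Zbtb46, which mark conventional dendritic cells, did not.

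As background, receptors of both families share immunoglobulin-like domains and differ in their tails. Inhibitory members such as CD300a, CD300f (the product of Cd300lf), PIR-B and gp49B (the product of Lilrb4a) carry tyrosine motifs that recruit the phosphatases SHP-1 and SHP-2. Activating members such as CLM-7 (Cd300lb) and CLM-5 (Cd300ld) have short tails and signal through adaptors with activation motifs, DAP12 (Tyrobp) and the Fc receptor gamma chain (Fcer1g). Several CD300 proteins bind lipids that appear on dying cells, and PIR-B binds MHC class I molecules.

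Most Cd300 genes sit side by side on mouse chromosome 11. From Cd300a to Cd300lf the annotation places 13 genes, 11 of them named Cd300, and 8 of those 11 were matched by a probe set. Promoter windows are shown for the genes of this cluster whose transcripts parted most clearly, and for Cd300ld5, which lies near Cd300ld. Each window holds 250 bases before and 50 after the annotated start, 5′ to 3′ on the gene's strand, from RefSeq (GRCm38.p6). Capitals mark matches, on either strand, to any of 6 short motifs that were searched.
Cd300lf promoter (chr11:115133943-115134242, - strand): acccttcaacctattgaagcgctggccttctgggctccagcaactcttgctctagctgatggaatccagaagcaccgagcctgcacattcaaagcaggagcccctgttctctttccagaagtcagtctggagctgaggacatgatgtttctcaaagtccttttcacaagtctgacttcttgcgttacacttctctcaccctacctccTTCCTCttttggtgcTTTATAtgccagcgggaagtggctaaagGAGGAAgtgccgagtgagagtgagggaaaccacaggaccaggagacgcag
Cd300ld promoter (chr11:114989837-114990136, - strand): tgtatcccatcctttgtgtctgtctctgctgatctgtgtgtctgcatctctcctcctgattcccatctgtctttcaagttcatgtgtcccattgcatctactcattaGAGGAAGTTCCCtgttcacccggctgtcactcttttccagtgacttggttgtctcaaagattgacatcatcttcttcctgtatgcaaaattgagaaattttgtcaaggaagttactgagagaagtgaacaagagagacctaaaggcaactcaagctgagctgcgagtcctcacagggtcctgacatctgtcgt
Cd300ld5 promoter (chr11:115037641-115037940, - strand): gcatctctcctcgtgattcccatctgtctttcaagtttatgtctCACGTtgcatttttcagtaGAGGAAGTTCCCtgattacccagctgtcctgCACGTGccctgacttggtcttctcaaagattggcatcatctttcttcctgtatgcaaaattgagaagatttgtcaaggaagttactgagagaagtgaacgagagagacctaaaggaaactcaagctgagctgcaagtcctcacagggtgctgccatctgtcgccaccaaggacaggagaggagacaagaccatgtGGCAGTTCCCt
Cd300lb promoter (chr11:114934322-114934621, - strand): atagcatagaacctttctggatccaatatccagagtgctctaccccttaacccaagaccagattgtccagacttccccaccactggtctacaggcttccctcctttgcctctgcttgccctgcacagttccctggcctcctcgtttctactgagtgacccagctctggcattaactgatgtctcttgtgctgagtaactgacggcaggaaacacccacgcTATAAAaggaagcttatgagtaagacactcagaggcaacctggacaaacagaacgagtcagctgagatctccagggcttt
The motifs were an interferon-stimulated response element (GAAA, any 2 bases, GAAA), a hypoxia response element core (ACGTG), the core bound by the myeloid factor PU.1 (GAGGAA), an AP-1 site (TGANTCA), an NF-kB-like site (GGGA, any 4 bases, CC) and TATAAA. Of 32851 RefSeq promoter windows of this length, 3.44% held the interferon motif, 19.6% the hypoxia core, 28.3% the PU.1 core, 7.81% the AP-1 site, 20.7% the NF-kB-like site and 13.6% TATAAA. The Cd300lf window held the PU.1 core 2 times and TATAAA once, on the opposite strand and beginning 28 bases before the start. The Cd300ld window held the PU.1 core overlapping an NF-kB-like site, and the same run of letters recurs in the Cd300ld5 window, which also held the hypoxia core 3 times, with 2 of these matches overlapping on opposite strands. These windows shared 226 of 300 bases, or 75.3%, in an end-to-end alignment with gaps. The other pairs among Cd300lf, Cd300ld, Cd300lb, Cd300a, Cd300c2, Cd300ld5, Pirb and the gp49A gene Lilr4b shared 48.0% to 57.3%. The Cd300lb window held TATAAA beginning 30 bases before the start. No interferon motif and no hypoxia core occurred in the windows of Cd300lf, Cd300ld or Cd300lb, which says only that those letters are not there. The Cd300c2 window, not shown, held the interferon motif once, beginning at base 12 after the start. Windows were found for 5 of the 7 receptor genes.

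The inhibitory receptor gene Cd300lf read higher under either treatment than in untreated cells, by more than 2-fold. CD300f recognises ceramide and other lipids, and in mice it is also the entry receptor of murine norovirus. Cd300lf (probe set 10392845) had an intensity of 208 in hypoxia with poly I:C, 177 in normoxia with poly I:C, 133 in hypoxia in media and 47.5 in normoxia in media. The 3 treated arrays were all above the untreated array, and the highest reading was 4.39 times the lowest. Poly I:C in normoxia gave a log2 difference of 1.90, or 3.73-fold. Hypoxia in media gave 1.49, or 2.81-fold, the 76th highest of the 2720 genes. On top of the other treatment each step was smaller, with a log2 difference of 0.64 for poly I:C in hypoxia and 0.23 for hypoxia with poly I:C, both under 2-fold. Both treatments together gave 2.13. Its untreated reading of 47.5 lay below the floor, so the gene was admitted through the treated arrays, which favours higher values there. Cd300lf was also the 1 receptor gene of the 7 that met the filter named in a header of the deposited table, a range of at least 80 and a ratio of at least 3, which 548 probe sets met.

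The other inhibitory CD300 gene, Cd300a, whose product binds phosphatidylserine and phosphatidylethanolamine, was dim. Cd300a (probe set 10382438) read 15.0 in hypoxia with poly I:C, 24.0 in normoxia with poly I:C, 46.3 in hypoxia in media and 24.2 in normoxia in media. The hypoxic media array was highest and the hypoxic poly I:C array lowest. The log2 difference for hypoxia was 0.93 in media and -0.68 with poly I:C, and for poly I:C it was -1.63 in hypoxia and -0.01 in normoxia. All 4 readings lay below the floor, and none of these differences was counted.

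**Figure D1:**
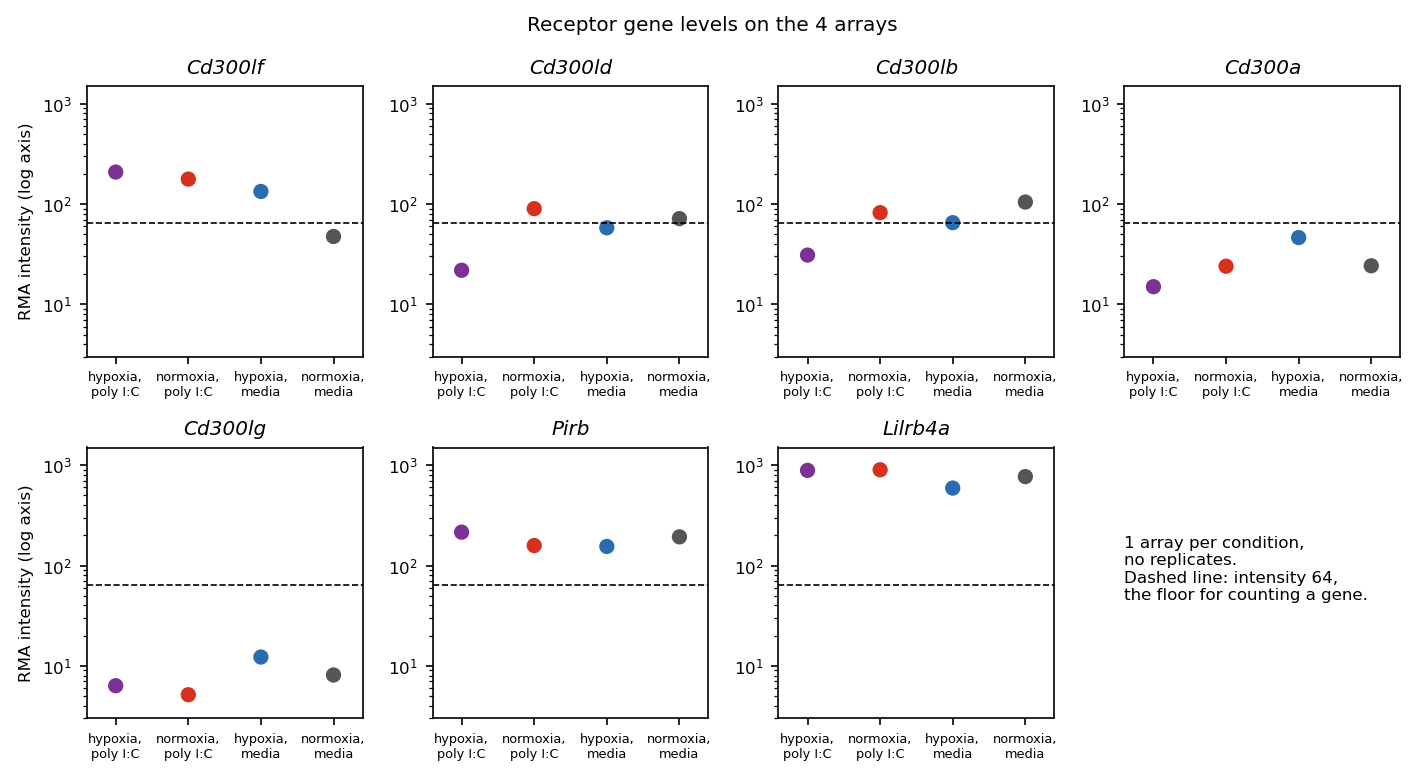
RMA intensity (log axis) of the 7 receptor genes on the 4 arrays, 1 point per array, without replicates, and the dashed line marks the floor of 64. Cd300lf was lowest in normoxia with media (47.5), Cd300ld and Cd300lb were lowest in hypoxia with poly I:C (21.9 and 31.0), and Pirb and Lilrb4a stayed within 1.39-fold and 1.52-fold. Points compare conditions within a gene, not levels between genes.

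The activating receptor gene Cd300ld stood out in the combined condition. CLM-5, its product, associates with the Fc receptor gamma chain. Cd300ld (probe set 10392808) read 21.9 in hypoxia with poly I:C, 89.8 in normoxia with poly I:C, 58.0 in hypoxia in media and 71.5 in normoxia in media. The array with both treatments was far below the other arrays, which lay within 2-fold of each other. With poly I:C present, hypoxia gave a log2 difference of -2.04, a 4.11-fold lower reading and the 5th lowest value of the 2720 genes. Without poly I:C the hypoxia difference was -0.30. Poly I:C gave -1.41 in hypoxia and 0.33 in normoxia. With 16 added to each intensity the value in hypoxia was -0.97, under 2-fold. The gene reached the floor on the 2 normoxic arrays and not on the hypoxic ones, and such admission favours lower values in hypoxia.

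Cd300lb, which encodes the DAP12-coupled receptor CLM-7, was also lowest with both treatments. Cd300lb (probe set 10392796) read 31.0 in hypoxia with poly I:C, 82.0 in normoxia with poly I:C, 65.2 in hypoxia in media and 105 in normoxia in media. Each treated array was below the untreated array, and the combination was lowest, 3.37-fold below it. The gene reached the floor on 3 arrays and not on the combined one, and such admission favours lower values there. The log2 difference for hypoxia was -1.40 with poly I:C, the 32nd lowest of the 2720 genes, and -0.68 in media. For poly I:C it was -1.07 in hypoxia and -0.35 in normoxia. The value of -1.07 was close to the 2-fold line and was -0.91 when arrays were centred on reference genes, -0.95 with cyclic loess scaling and -0.79 when 16 was added to each intensity.

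Cd300lg encodes nepmucin, a CD300 protein known from the endothelium of high endothelial venules. Its probe set 10381514 read 6.34 in hypoxia with poly I:C, 5.15 in normoxia with poly I:C, 12.2 in hypoxia in media and 8.11 in normoxia in media. These readings were all far under the floor, beside array medians of 3.90 to 4.09. Of 8 endothelial markers 2 were above the floor on some array, Kdr (91.3 in hypoxia with poly I:C) and Vwf (68.1 in hypoxia in media), while Cdh5 (2.92 to 3.32), Pecam1 (2.73 to 4.38), Tek, Emcn, Plvap and Tie1 stayed near the array median.

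Pirb, the inhibitory receptor for MHC class I, differed little between conditions. Pirb (probe set 10559446) read 215 in hypoxia with poly I:C, 158 in normoxia with poly I:C, 155 in hypoxia in media and 193 in normoxia in media. The array with both treatments was highest, and the arrays with 1 treatment each were the lowest. Its log2 difference for hypoxia was 0.44 with poly I:C and -0.32 in media, and for poly I:C it was 0.47 in hypoxia and -0.29 in normoxia. None of these reached 2-fold, and the normoxic poly I:C value was 0.03 when arrays were centred on reference genes.

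The activating partners of PIR-B are encoded by the near-identical Pira genes, which signal with the Fc receptor gamma chain. Pira11 (probe set 10559467) read 273 in hypoxia with poly I:C, 235 in normoxia with poly I:C, 264 in hypoxia in media and 232 in normoxia in media, and its other probe set ranged from 223 to 256. Lilra6, listed as Pira3, ranged from 25.9 to 38.4. The table marks no cross-hybridisation for these probe sets or for those of the receptor genes, but probe sequences were not used here. How far Pira and Pirb transcripts were read separately was therefore not tested.

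Lilrb4a encodes gp49B, an inhibitory receptor that binds the integrin alpha-v beta-3. Its probe set 10363082 read 887 in hypoxia with poly I:C, 899.5 in normoxia with poly I:C, 591 in hypoxia in media and 770 in normoxia in media. Both poly I:C arrays lay above both media arrays, by less than 2-fold. The log2 difference for poly I:C was 0.59 in hypoxia and 0.22 in normoxia, and for hypoxia it was -0.02 with poly I:C and -0.38 in media. The neighbouring and near-identical Lilr4b, which encodes gp49A, a form without inhibitory tail motifs, read 855 in hypoxia with poly I:C, 928 in normoxia with poly I:C, 592 in hypoxia in media and 839.8 in normoxia in media. The pair cannot be assumed to be read separately.

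Set out along the chromosome, the Cd300 genes did not share an order of conditions. Of its 8 Cd300 genes with a probe set, 5 had their lowest reading in hypoxia with poly I:C, namely Cd300a, Cd300lb, Cd300ld, Cd300c2 and Cd300ld5. The highest reading of Cd300lf and Cd300e was on that array. Counting the 4 Cd300 genes above the floor, 3 were lowest and 1 was highest there, and of all 2720 genes above the floor 34.2% were lowest and 24.8% highest there. Cd300c2, which encodes the activating receptor CLM-4 and is no member of the set, read 107 in hypoxia with poly I:C, 147 in normoxia with poly I:C, 202 in hypoxia in media and 196 in normoxia in media. Its log2 difference for poly I:C was -0.92 in hypoxia and -0.42 in normoxia. Cd300ld5 was dim on its brighter probe set, at 10.7 in hypoxia with poly I:C, 18.2 in normoxia with poly I:C, 20.5 in hypoxia in media and 25.5 in normoxia in media. Its other probe set gave the same lowest array, at 6.15. Cd300c and Cd300e stayed between 3.13 and 5.07 throughout. Cd300lf, at the far end of the cluster and separated from Cd300e by the unrelated and dim Rab37, was highest in the condition where Cd300lb and Cd300ld were lowest.

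**Figure D2:**
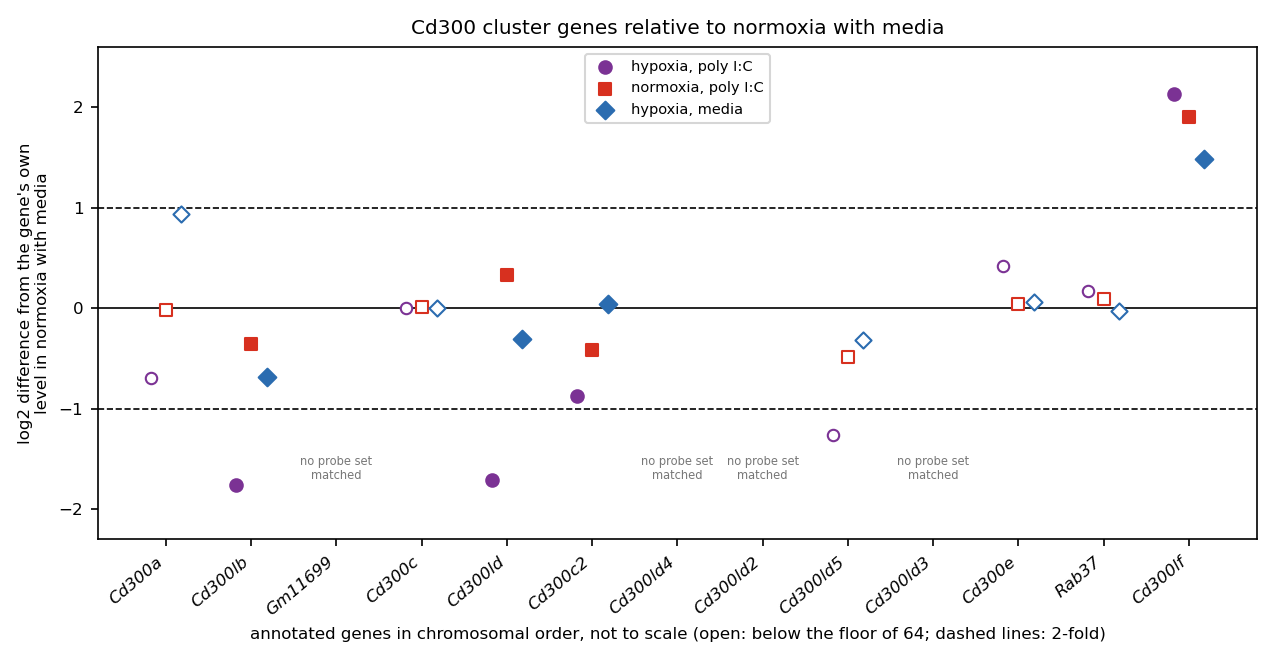
Log2 difference of each condition from the gene's own level in normoxia with media, for the annotated genes from Cd300a to Cd300lf in chromosomal order. Filled symbols are genes above the floor, open symbols genes below it. With both treatments Cd300lb (-1.75) and Cd300ld (-1.71) lay far below 0 and Cd300lf (2.13) far above it.

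Counted over the 5 receptor genes above the floor, the calls were of Cd300lf, Cd300ld and Cd300lb, and none was of Pirb or Lilrb4a. With poly I:C in hypoxia 2 were lower, Cd300ld and Cd300lb, where 9.6% of all genes were lower, and none was higher, where 16.5% of all genes were (26.1% called in either direction). That count of 2 was 0 with 16 added to each intensity, 0 at 3-fold and 0 with the floor raised to a log2 intensity of 7, and it was 1 with reference-gene centring or with cyclic loess. With poly I:C in normoxia 1 was higher, Cd300lf, where 14.9% of all genes were higher, and none was lower, where 7.21% were (22.1% in either direction). The median of the 5 genes was 0.47 in hypoxia and 0.22 in normoxia, beside -0.06 and -0.03 over all genes.

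Hypoxia with poly I:C gave 2 lower calls, again Cd300ld and Cd300lb, where 3.68% of all genes were lower, and no higher call, where 4.01% were (7.68% in either direction). Hypoxia in media gave 1 higher call, Cd300lf, where 5.37% of all genes were higher, and no lower call, where 6.76% were (12.1% in either direction). The medians were -0.02 with poly I:C and -0.32 in media, beside -0.05 and -0.10 over all genes. The array with both treatments against the untreated array gave 1 higher call, Cd300lf, and 2 lower calls, Cd300ld and Cd300lb, where 18.9% of all genes were higher and 14.4% lower (33.3% in either direction). Its median was 0.16, beside -0.10 over all genes. These comparisons share arrays with each other, so their calls are not independent, and the members were chosen with such values known. The combined array enters every comparison in which Cd300ld and Cd300lb were called.

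**Figure D3:**
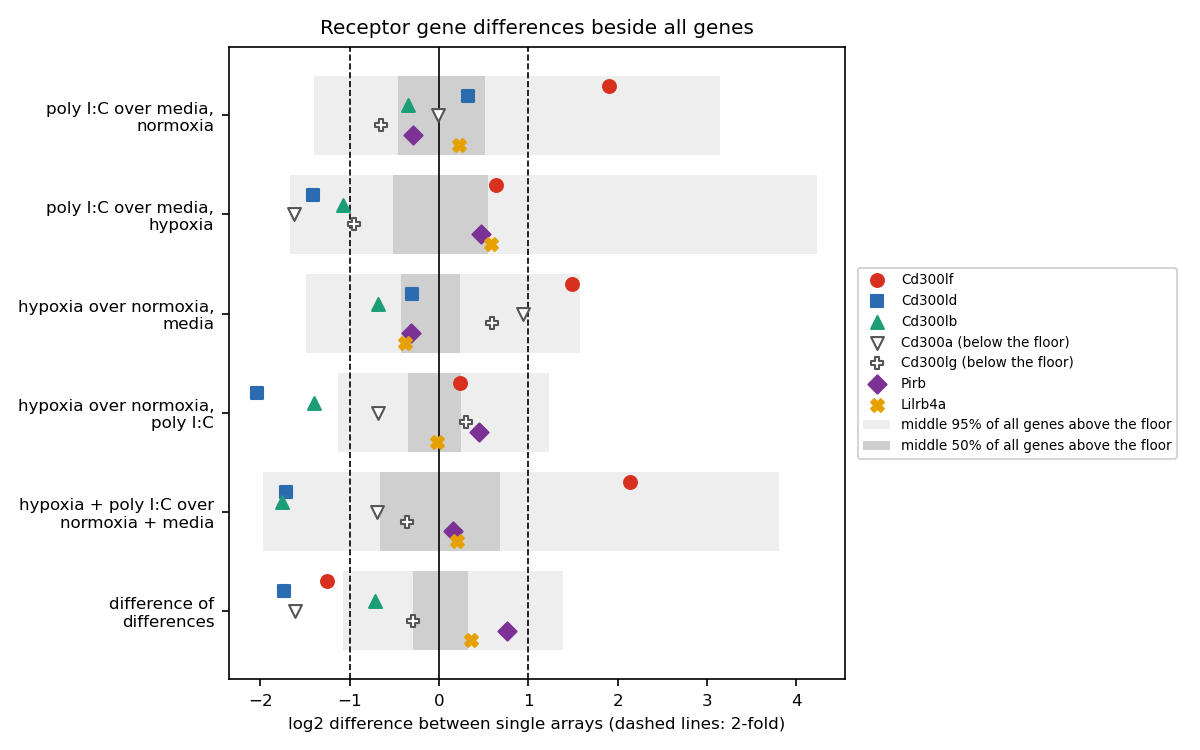
Log2 differences of the 7 receptor genes in 6 comparisons, with grey bars for the middle 50% and 95% of the 2720 genes above the floor and dashed lines at 2-fold. For hypoxia over normoxia with poly I:C, Cd300ld (-2.04) and Cd300lb (-1.40) lay outside the middle 95%, which ran from -1.13 to 1.23. Open symbols are Cd300a and Cd300lg, which did not reach the floor.

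The difference of differences asks whether the poly I:C difference was the same at both oxygen levels. It is the log2 difference for poly I:C in hypoxia minus that in normoxia, and it uses all 4 arrays. Of the 5 genes 2 were called lower, Cd300ld at -1.74 and Cd300lf at -1.26, where 2.9% of all genes were called lower, and none was called higher, where 5.92% of all genes were (8.82% in either direction). Cd300ld ranked 14th and Cd300lf 46th from the lowest. They arrived there differently. For Cd300ld, poly I:C went with a lower reading in hypoxia. In normoxia, poly I:C went with a difference of 0.33, between the quartiles of all genes above the floor (-0.46 and 0.51). For Cd300lf, poly I:C went with higher readings at both oxygen levels, by 0.64 in hypoxia and 1.90 in normoxia. Cd300lb was at -0.72, Lilrb4a at 0.36 and Pirb at 0.76, none of them 2-fold.

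**Figure D4:**
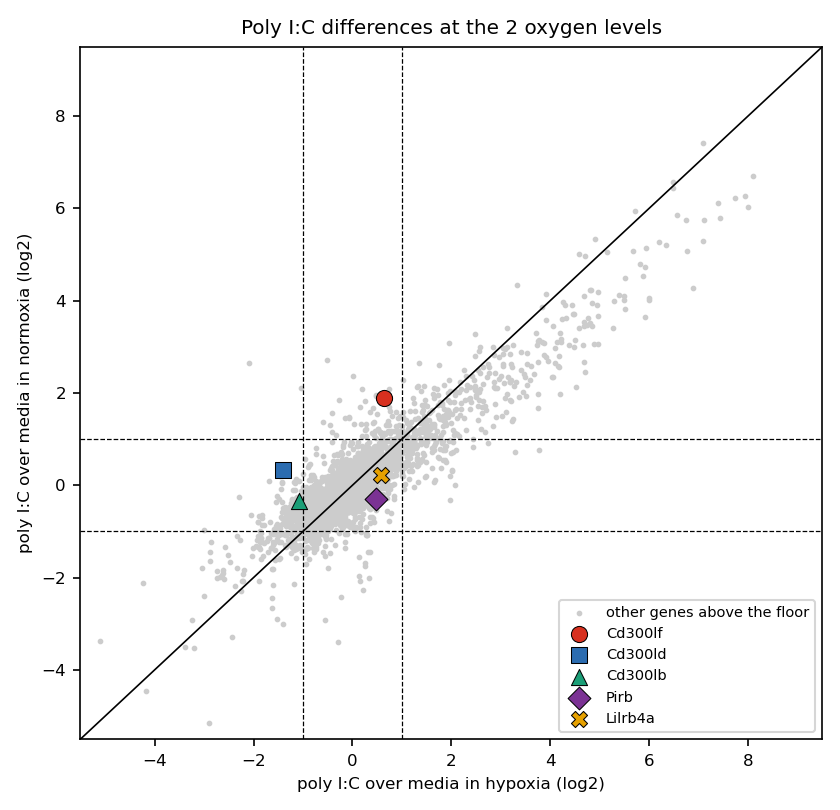
Log2 difference for poly I:C over media in hypoxia (horizontal axis) and in normoxia (vertical axis) for the 2720 genes above the floor, with the 5 receptor genes marked, the line of equal values and dashed lines at 2-fold. The axes share no array. Cd300ld (-1.41 in hypoxia, 0.33 in normoxia) and Cd300lf (0.64 and 1.90) lie above the line of equal values, and Pirb (0.47 and -0.29) below it.

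The genes whose 4 readings were most like those of each receptor gene were found by the root mean square difference of log2 values, each gene centred on its own mean, over the 4 arrays. For Cd300lf they were the spermine oxidase gene Smox (0.16), the glycolytic regulator gene Pfkfb3 (0.18) and AI837181 (0.21). Smox read 197 in hypoxia with poly I:C, 125 in normoxia with poly I:C, 107 in hypoxia in media and 41.9 in normoxia in media. For Cd300ld they were the potassium channel gene Kcnk6 (0.12), the matrix protein gene Tgfbi (0.16) and Tm4sf19 (0.26). Tgfbi read 96.5 in hypoxia with poly I:C, 306 in normoxia with poly I:C, 259 in hypoxia in media and 298 in normoxia in media. For Cd300lb they were Crlf3 (0.09), the phospholipase gene Ddhd1 (0.09) and Cyria (0.12). Cd300lb was the 7th most like gene to Cd300ld, at 0.28, and seen from Cd300lb, Cd300ld was the 62nd. Pirb was most like Ppp1cb (0.05), Hipk1 (0.06) and Xpo1 (0.06). Lilrb4a was most like the tubulin genes Tuba1c and Tuba1b (0.02 each) and the proteasome gene Psmc1 (0.03). With 4 points per gene, likeness is a description only.

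Markers of the cell types in such a culture also differed between arrays, and fewer cells of a type and less RNA per cell cannot be told apart in bulk RNA. Of the macrophage markers, Adgre1 (F4/80) read 50.5 in hypoxia with poly I:C, 96.8 in normoxia with poly I:C, 90.9 in hypoxia in media and 174 in normoxia in media. Mertk, a receptor for dying cells, read 41.2 in hypoxia with poly I:C, 93.6 in normoxia with poly I:C, 111 in hypoxia in media and 120 in normoxia in media. These genes were lowest on the array where Cd300ld and Cd300lb were lowest, as were Mrc1 and Ccr2, while Cd68 and Cd14 were highest there. In all, 4 of the 13 macrophage and monocyte markers above the floor were lowest on that array and 2 were highest. Of all genes above the floor 34.2% were lowest there and 24.8% highest. Cd14 read 328 in hypoxia with poly I:C, 188 in normoxia with poly I:C, 153 in hypoxia in media and 88.5 in normoxia in media. Fcgr1 was higher with poly I:C, at 649.9 in hypoxia with poly I:C, 666 in normoxia with poly I:C, 21.1 in hypoxia in media and 44.7 in normoxia in media. The summed intensity of the 14 macrophage and monocyte markers was 6664 in hypoxia with poly I:C, 6356 in normoxia with poly I:C, 7072 in hypoxia in media and 7271 in normoxia in media. For the 12 dendritic cell markers, 8 of them above the floor, it was 5443 in hypoxia with poly I:C, 4141 in normoxia with poly I:C, 4806 in hypoxia in media and 3836 in normoxia in media. Cd74 and the MHC class II genes H2-Ab1, H2-Aa and H2-Eb1 made up most of each sum. Of the 8 above the floor, 4 were highest on the array with both treatments, Cd74, H2-Ab1, H2-Eb1 and Cd86. Itgax was the 1 lowest there, at 268.1 against 615 in normoxia in media. The summed neutrophil markers, 12 in number with Mmp8 alone above the floor, were lower with poly I:C, at 132 in hypoxia with poly I:C, 155 in normoxia with poly I:C, 617 in hypoxia in media and 487 in normoxia in media. That sum follows Mmp8, at 95.3 in hypoxia with poly I:C, 108 in normoxia with poly I:C, 580 in hypoxia in media and 441 in normoxia in media. The other neutrophil markers read 13.7 or less on every array. Markers of B cells, T cells, natural killer cells, and mast cells or basophils were all below the floor. Eosinophil markers, with Ear1 and Ear2 above it, summed to 474 in hypoxia with poly I:C, 281 in normoxia with poly I:C, 240.4 in hypoxia in media and 142 in normoxia in media. Ear1 and Ear2 made up most of each sum, and the other eosinophil markers read 15.1 or less. The part of these cell types in the Cd300 values was not tested.

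The signalling partners of the receptors mostly differed by under 2-fold. Of 18 adaptor and kinase genes 12 reached the floor. Tyrobp (DAP12), the partner of CLM-7, read 197 in hypoxia with poly I:C, 209 in normoxia with poly I:C, 224 in hypoxia in media and 241 in normoxia in media. Fcer1g, the Fc receptor gamma chain, read 799 in hypoxia with poly I:C, 899 in normoxia with poly I:C, 546 in hypoxia in media and 579.9 in normoxia in media. Neither reached 2-fold between any 2 of the conditions compared, and nor did the kinase gene Syk, at 77.8 to 115. The Src family kinase gene Fgr read 39.0 in hypoxia with poly I:C, 53.9 in normoxia with poly I:C, 29.1 in hypoxia in media and 87.6 in normoxia in media. It was called lower in hypoxia in media (-1.59) and in the combined against the untreated array (-1.17), and its difference of differences was 1.12. Over the 12 genes the median log2 difference was 0.00 for poly I:C in hypoxia, 0.17 for poly I:C in normoxia, -0.24 for hypoxia with poly I:C and -0.09 for hypoxia in media. Of 8 phosphatase and inhibitory adaptor genes 4 reached the floor, Ptpn6, Inpp5d, Dok1 and Csk. Ptpn6, which encodes SHP-1, read 171 in hypoxia with poly I:C, 249.6 in normoxia with poly I:C, 77.7 in hypoxia in media and 139 in normoxia in media. It was called higher under poly I:C in hypoxia (1.14) and was at 0.84 in normoxia. Inpp5d, which encodes the lipid phosphatase SHIP-1, stayed between 86.9 and 120.

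Among 17 listed ligand genes 15 had a probe set and 9 reached the floor. The class I genes, whose products PIR-B binds, were called higher with poly I:C at both oxygen levels, while B2m was at 0.52 in hypoxia and 0.53 in normoxia. H2-K1 read 2068 in hypoxia with poly I:C, 1495 in normoxia with poly I:C, 589 in hypoxia in media and 434 in normoxia in media. H2-Q6, H2-T23 and H2-D1 were the other higher calls, at 4.68, 1.86 and 1.49 in hypoxia and 4.10, 2.18 and 1.32 in normoxia. H2-Q6 was under the floor on both media arrays (41.3 in hypoxia, 31.1 in normoxia) and H2-T23 in normoxia in media (40.6). Such admission favours higher values on their other arrays. The class I genes thus differed by more than 2-fold where Pirb differed by 1.39-fold at most. Itgav, a subunit of the integrin that gp49B binds, stayed between 47.7 and 72.5, and its partner Itgb3 was below the floor. Fn1, which encodes fibronectin, was called lower with poly I:C, at -4.18 in hypoxia and -4.45 in normoxia. At each oxygen level 4 of the 9 genes were called higher with poly I:C, where 16.5% of all genes were in hypoxia and 14.9% in normoxia. Fn1 was the 1 lower call at each, where 9.6% of all genes were lower in hypoxia and 7.21% in normoxia.

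Other paired and inhibitory receptors of myeloid cells were looked at for comparison. Of 31 listed genes 29 had a probe set and 13 were above the floor. Under poly I:C in hypoxia 6 were higher and 3 lower, where 16.5% of all genes were higher and 9.6% lower. Their median was 0.59, beside -0.06 over all genes. Under poly I:C in normoxia 6 were higher and 1 lower, where 14.9% of all genes were higher and 7.21% lower, with a median of 0.72 beside -0.03. Hypoxia with poly I:C gave 2 lower and no higher, where 3.68% of all genes were lower and 4.01% higher, with a median of -0.24 beside -0.05. Hypoxia in media gave 1 higher and 3 lower, where 5.37% of all genes were higher and 6.76% lower, with a median of -0.47 beside -0.10. Siglec1 (CD169) was furthest apart, at 182 in hypoxia with poly I:C, 175 in normoxia with poly I:C, 6.15 in hypoxia in media and 21.0 in normoxia in media. Klra2 (2.48 in hypoxia, 2.80 in normoxia) and Cd72 (1.95 in hypoxia, 2.27 in normoxia) were also higher with poly I:C. Clec4a2, an inhibitory lectin receptor gene, was lower (-1.88 in hypoxia, -1.13 in normoxia). Siglec1 reached the floor only with poly I:C, and Klra2 and Cd72 only in normoxia with poly I:C, which favours higher values there. In hypoxia the poly I:C differences of Klra2 (46.4 against 8.30) and Cd72 (42.0 against 10.8) compare readings under the floor. Clec4a2 reached the floor only in untreated cells, which favours lower values elsewhere. Its poly I:C difference in hypoxia compares 14.3 with 52.9, both under the floor.

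Within this group the receptor gene Sirpb1a, like Cd300lf, was lowest in untreated cells. It read 582 in hypoxia with poly I:C, 746 in normoxia with poly I:C, 420.1 in hypoxia in media and 193 in normoxia in media, so that all treated arrays were above the untreated one. The PILR family holds an activating and an inhibitory receptor, as the CD300 family does. Pilrb1, the activating form, read 195 in hypoxia with poly I:C, 194 in normoxia with poly I:C, 30.6 in hypoxia in media and 87.4 in normoxia in media. Pilra, the inhibitory form, was named after its values were seen and read 408 in hypoxia with poly I:C, 312 in normoxia with poly I:C, 129 in hypoxia in media and 298 in normoxia in media. Both were called lower in hypoxia in media (-1.51 for Pilrb1, -1.20 for Pilra), and with poly I:C the hypoxia difference was 0.01 for Pilrb1 and 0.38 for Pilra.

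**Figure D5:**
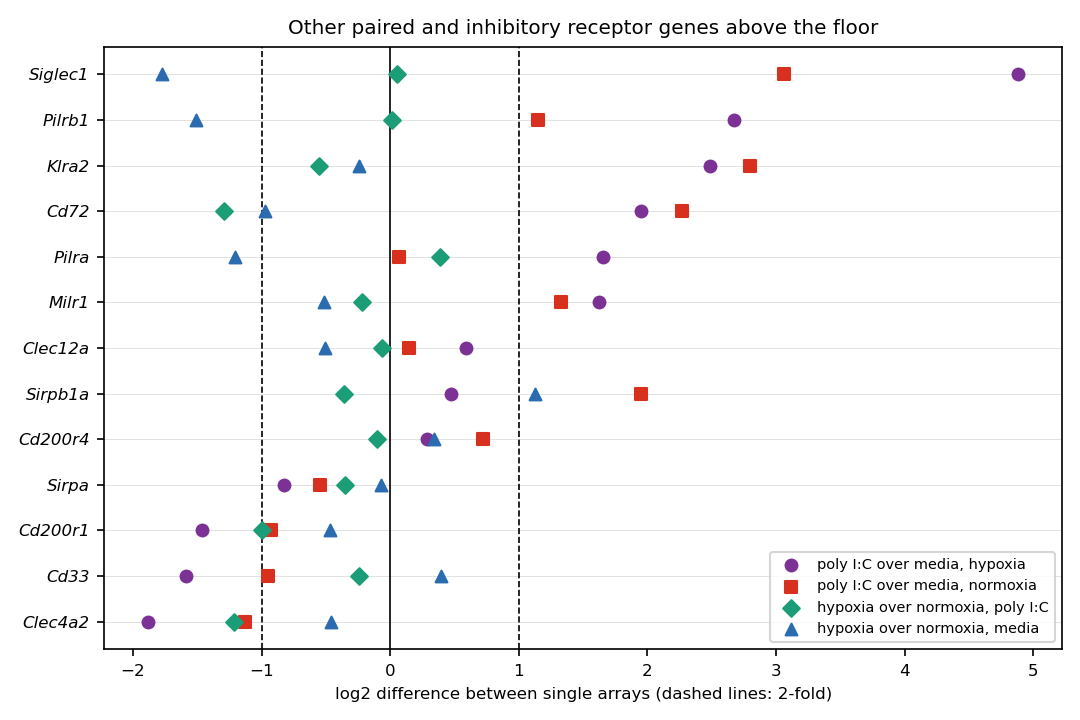
Log2 differences of the 13 other paired and inhibitory receptor genes above the floor in 4 comparisons between single arrays, ordered by the poly I:C difference in hypoxia, with dashed lines at 2-fold. Siglec1 (4.89 in hypoxia, 3.06 in normoxia) had the highest poly I:C differences of these genes, and Clec4a2 (-1.88 and -1.13) the lowest.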

How the data were processed

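Members and gene lists were chosen with earlier results of these data known. The deposited values are RMA intensities, which the authors made from the array files per the series' design text, in Affymetrix Expression Console per the submitters' processing notes. Neither versions nor an annotation build is given in the sources used here. RMA corrects background and equalises the distributions of arrays, which can shrink large differences. The intensities turned out to be linear, so log2 was taken first. The 2 deposited tables held the same intensities, with 0 of the values differing, and 4 columns of per-sample Z-scores were not used.

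Of 28998 probe sets, 18753 were named by RefSeq accession, 2210 by symbol and 1750 by synonym in a RefSeq table of GRCm38.p6, and 2270 kept the file's symbol. A further 163 had several genes and 3852 none, and these were left out. Per gene the probe set with the highest mean was used. The subtraction and calling of differences were run on simulated arrays, in which known shifts were added to bright genes (log2 intensity of 7 or more). Their recovery was largely fixed in advance. It does not cover genes near the floor, naming, likeness or motifs. Named genes were all members, up to 6 called and 3 uncalled genes above the floor per list, and the 3 genes most like each member. Genes outside this rule are single readings given beside a member. Analyses ran in Python 3.11.15 with pandas 2.3.3, limma 3.58.1 (cyclic loess) and Biopython 1.88 (alignment). Alternatives covered the floor, the fold threshold, a pseudocount, scaling, probe set choice and the second table. The result of 1 listed gene is not reported here.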

Additional observations from a re-analysis of the deposited data

Results flagged for a closer look

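The poly I:C difference of Cd300ld had opposite signs at the 2 oxygen levels, but only the hypoxic one reached 2-fold. The log2 difference was -1.41 in hypoxia (21.9 with poly I:C, 58.0 in media), where both readings lay under the floor of 64. In normoxia it was 0.33 (89.8 with poly I:C, 71.5 in media). That value lay between the quartiles of all genes above the floor in this comparison, -0.46 and 0.51. On single arrays its sign cannot be told apart from no difference. The gap between the hypoxic and the normoxic log2 difference was -1.74. With 1 array per condition this difference was not tested, and it ranged from -1.89 to -1.24 over the alternative settings. The gap also rests on the single array with both treatments. On that array 4 of 13 macrophage and monocyte markers above the floor were lowest and 2 were highest. Of all genes above the floor 34.2% were lowest there and 24.8% highest.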

How the results depend on the processing

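No paired analysis was possible because each condition has 1 array, and for the same reason no replicate could be left out. Of 66 recomputed member counts 52 stayed within 1.5 times the main count, and of 450 recomputed member values none changed sign where it had been called. Most of the 450 were fixed in advance, since floors, fold thresholds, probe set choice and the second table cannot change a member's value. The probe set choice and the second table could not move a count either. Only the added 16, the centrings and cyclic loess could move a value, and the added 16 cannot turn the sign between 2 arrays. The number of called members is given here with the share of all genes called under the same setting in brackets. With the floor raised to a log2 intensity of 7, which drops Cd300ld and Cd300lb, it was 0 for poly I:C in hypoxia (29.2%) and 0 for hypoxia with poly I:C (7.71%). It was 1 for both treatments together (37.4%) and 1 for the difference of differences (10.7%). At 3-fold it was 0 for poly I:C in hypoxia (14.0%) and 0 for hypoxia in media (4.63%). There it was 1 for hypoxia with poly I:C (1.88%) and 1 for the difference of differences (2.46%). At 1.5-fold it was 4 for poly I:C in hypoxia, 2 for hypoxia in media and 4 for the difference of differences. For poly I:C in hypoxia it was also 0 with 16 added to each intensity (19.6%), where Cd300ld was at -0.97. In the same comparison it was 1 both with centring on 4 reference genes (25.1%) and with cyclic loess (24.8%). Without a floor, or with a floor of 32, Cd300a joined the calls for poly I:C in hypoxia (-1.63) and for the difference of differences (-1.61). With the floor of 32, 21.2% and 7.36% of all genes were called in these 2 comparisons. Centring on the reference genes put the all-gene median for poly I:C in normoxia at 0.29, against -0.03 without it. The share of all genes called differed by over 1.5 times without a floor, at 6.49% for poly I:C in hypoxia, 5.78% for poly I:C in normoxia, 2.42% for hypoxia with poly I:C, 3.68% for hypoxia in media, 9.87% for both treatments and 3.43% for the difference of differences. With 16 added it did so too, at 4.19% for hypoxia with poly I:C, 7.43% for hypoxia in media and 4.82% for the difference of differences. The 3-fold and 1.5-fold thresholds move these shares by construction, to 14.0% and 46.1% for poly I:C in hypoxia. Cyclic loess gave no value for Cd300a and Cd300lg, which are below the floor.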

Other observations

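The TREM receptors resemble the CD300 proteins in build, with a lone immunoglobulin-like domain, and their genes lie together at another locus. Trem1, which amplifies inflammatory responses of myeloid cells through DAP12, had 97.9 in hypoxia with poly I:C, 50.9 in normoxia with poly I:C, 16.7 in hypoxia in media and 6.73 in normoxia in media. It was called higher under poly I:C (2.56 in hypoxia, 2.92 in normoxia) and in hypoxia in media (1.31), and it was at 0.94 for hypoxia with poly I:C. It reached the floor on the combined array alone, which favours higher values there. The calls for poly I:C in normoxia (50.9 against 6.73) and for hypoxia in media (16.7 against 6.73) compare readings under the floor. Trem2, a lipid receptor that uses the same adaptor, had 44.1 in hypoxia with poly I:C, 36.3 in normoxia with poly I:C, 87.9 in hypoxia in media and 68.5 in normoxia in media. Its log2 difference for poly I:C was -0.997 in hypoxia, just short of 2-fold, and -0.92 in normoxia. Treml2, named after its values were seen and below the floor on all arrays, had 48.3 in hypoxia with poly I:C, 50.3 in normoxia with poly I:C, 3.82 in hypoxia in media and 12.1 in normoxia in media.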
